A study of Mus musculus with 4 samples.

Results

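Amphiregulin and the proteins that release it form a group of 8 genes described here, namely the ligand genes Areg, Hbegf and Tgfa, the receptor gene Egfr, the protease genes Adam8, Adam10 and Adam17, and Rhbdf2, which encodes iRhom2. They were taken as the rows of both deposited tables whose gene symbol equals one of these names, and all 8 of 8 were found among 22558 genes. RNA came from group 2 innate lymphoid cells (ILC2s) sorted from mouse lungs, and 4 libraries were sequenced, a pair from wild-type (WT) animals of the C57BL/6 strain and a pair carrying the label ICAM-1 KO (called KO-labelled below). The comparison asked which transcripts differ in lung ILC2s when the adhesion molecule ICAM-1 is missing. All mice were 6 weeks old and all received 0.5 µg of recombinant mouse IL-33 into the nose in each of 3 challenges, so no library comes from an unchallenged lung. Lungs were taken on day 4 and the cells were sorted as CD45+, lineage negative, ST2+ and CD127+, with a stated purity above 95%. The lineage stain was directed at T cells (CD3ε, CD4, CD5 and the T cell receptors), B cells (CD45R) and myeloid cells (CD11b, CD11c and Gr-1). It was also directed at erythroid cells (Ter119) and cells with FcεRIα, such as basophils and mast cells. The gate was thus meant to exclude these types, and the CD45 gate epithelial, endothelial and stromal cells. Markers of several of them were still read in the libraries, as given below. Each library is a pool of 4 mice, so that animals within a pool cannot be told apart and n = 2 pools per group. The knockout is carried by every cell of the animal rather than by ILC2s alone, and its allele was made in 129-strain cells and then moved to C57BL/6.

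Ligands of the EGF family are made as membrane-anchored precursors. They act on neighbouring cells once a metalloprotease (a sheddase) cuts them free, after which they bind the receptor EGFR or its relatives. ADAM17 is the main sheddase of amphiregulin, HB-EGF and TGF-α, and iRhom2 carries ADAM17 from the endoplasmic reticulum to the cell surface. ADAM10 mainly cuts EGF and betacellulin, and ADAM8 is a leukocyte protease that cuts several surface proteins. In the lung, ILC2s stimulated by IL-33 are a known source of amphiregulin, which acts on the airway epithelium during repair.

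Areg was by far the most abundant of these transcripts, and its upstream sequence is shown first because it is the only one of the 6 available member promoters with either a cyclic AMP response element (CRE, TGACGTCA) or a TATA box (TATAAA). Areg lies at chr5:91139599-91148432 on the plus strand (mm10; protein coding, ENSMUSG00000029378.5). The 250 bases before its RefSeq start (GRCm38.p6, the build called mm10, chr5:91139349-91139598, plus strand) read as follows, 5′ to 3′, with the CRE, a GC box (GGGCGG) and the TATA box in capitals in that order.
Areg: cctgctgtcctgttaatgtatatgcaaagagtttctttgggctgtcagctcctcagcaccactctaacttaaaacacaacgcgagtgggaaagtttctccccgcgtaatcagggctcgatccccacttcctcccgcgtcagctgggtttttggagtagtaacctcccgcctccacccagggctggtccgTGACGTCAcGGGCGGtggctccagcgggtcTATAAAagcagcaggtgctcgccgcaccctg

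The CRE lay 61 to 54 bases before the start, the GC box 52 to 47 bases and the TATA box 31 to 26 bases. Both strands of windows of 300 bases, 250 before and 50 after the start, were searched by letters. Of 32851 such mouse windows in RefSeq, 1.79% held the CRE, 13.6% the TATA box and 35.7% the GC box. An AP-1 site (TGANTCA, in 7.81% of windows) and an EGR site (GCGNGGGCG, in 5.55%) had no match in the windows of the 6 members. For contrast, the 60 bases before the starts of the 3 protease genes read as follows, each on the gene's own strand, with a GC box read on the other strand in capitals for Adam8.
Adam8: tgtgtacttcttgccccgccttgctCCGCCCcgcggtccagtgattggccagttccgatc
Adam10: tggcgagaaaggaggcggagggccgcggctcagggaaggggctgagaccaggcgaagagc
Adam17: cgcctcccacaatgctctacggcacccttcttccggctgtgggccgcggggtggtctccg

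These stretches cover chr7:139992563-139992622 (minus strand), chr9:70678922-70678981 (plus strand) and chr12:21373633-21373692 (minus strand). The windows of Adam10 and Adam17 held GC boxes upstream of these stretches. For Adam10 they lay 238 to 233, 119 to 114 and 114 to 109 bases before the start, and for Adam17 75 to 70 bases. The windows of Tgfa and Egfr held GC boxes too, so that each member window searched had at least one. A match of letters describes the window and is not evidence that a factor binds there. The windows of Areg, Tgfa, Egfr, Adam8, Adam10 and Adam17 were 59.3%, 70.7%, 62.3%, 52.3%, 73.3% and 70.0% G or C. No window was listed for Hbegf and Rhbdf2.

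Total counts per library were 24796148 to 28782471. The ILC2 markers Gata3 (425 to 537 normalized counts) and Il1rl1, which encodes ST2 (626 to 774), were present in all 4 libraries, and of 11 ILC2 markers tested 2 were higher and 4 lower in the KO-labelled libraries. Icam1 itself was not lower in the KO-labelled libraries, with 2579 and 2630 counts in WT against 2812 and 3453 (log2 fold change 0.33, adjusted p = 0.0745). This gene therefore does not check the labels, which are used here as given. Many markers of other cells moved with the label, where 8.8% of all genes tested were called higher and 4.97% lower. Of the markers tested, 5 of 8 of alveolar epithelium, 9 of 9 of endothelium, 7 of 8 of macrophages and monocytes, 3 of 3 of neutrophils, 3 of 6 of T cells, 2 of 3 of regulatory T cells, 4 of 4 of B cells and 1 of 6 of fibroblasts were called higher in the KO-labelled libraries. None of these lists had one called lower, and the 1 of 6 for fibroblasts is near the share over all genes. Of the 4 basophil and mast cell markers tested, 0 were called. Of the T cell markers not called, Cd3g read 114 and 127 normalized counts in WT against 81.1 and 107, and Cd3e and Cd8a had overlapping groups. For eosinophils 2 of 3 were lower, with Epx at 0 counts in both of these libraries, and 1 was higher. In sorted bulk samples, fewer cells of a type and less RNA per cell cannot be told apart.

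Hbegf was the only member that passed the test, and it fell. Of the 8 genes, 6 had enough counts to be tested. With edgeR's quasi-likelihood test, adjusted by Benjamini-Hochberg over 11711 genes (a call is an adjusted p under 0.05), 0 of the 6 were higher in the KO-labelled libraries and 1 of the 6 was lower. Among all genes tested, 8.8% were called higher and 4.97% lower, and 13.8% in either direction against 16.7% of the 6 members, which is near the background. The median log2 fold change was -0.10 over the 6 members and 0.01 over all genes tested. The groups did not overlap for 3 of the 6 members (Areg, Hbegf and Adam10), or 50%, where 59.5% of all genes tested did not overlap, so that separation of the 2 pools from the 2 others is common in these data.

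**Figure D1:**
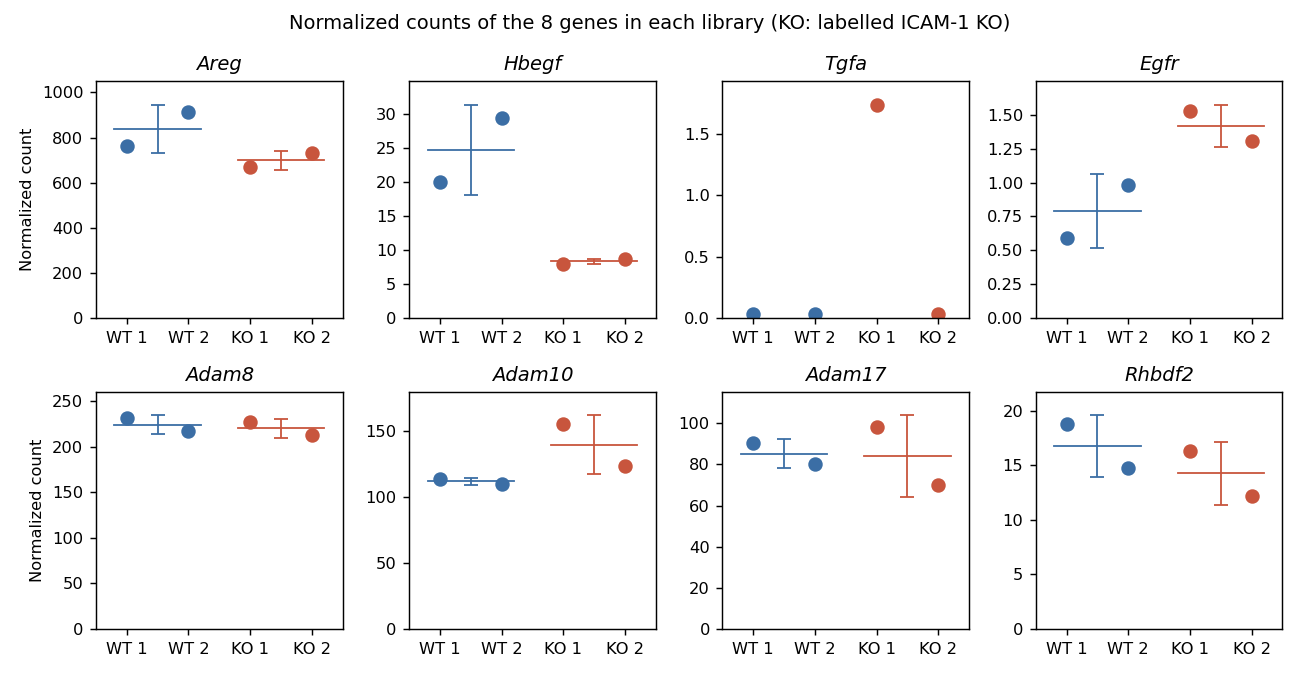
Normalized counts (linear y axis from 0) of the 8 genes in WT and KO-labelled libraries, one point per library, with the group mean as a horizontal line and its SD as the bar (n = 2). Hbegf sits at 20.0 and 29.4 in WT against 8.02 and 8.63, while the Adam8 points of both groups share one range of 213 to 231. For Tgfa, with 3 libraries at 0 counts, no mean is drawn.

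Levels of different genes are compared per length, as normalized counts per kb of annotated exon. On that scale the order of the means over 4 libraries was Areg (633), Adam8 (47.9), Adam10 (25.5), Adam17 (11.8), Hbegf (3.41), Rhbdf2 (2.92), Egfr (0.0944) and Tgfa (0.0655). Areg ranked 55th of the 11665 tested genes with a length. The first 4 genes kept this order in every library. Hbegf and Rhbdf2 were the neighbours that changed places, since Hbegf (4.13 and 6.07 per kb) lay above Rhbdf2 (3.54 and 2.78) in both WT libraries and below it in both KO-labelled libraries (1.65 and 1.78 against 3.08 and 2.31). Egfr and Tgfa likewise could not be ordered, because Tgfa was read in 1 library only.

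**Figure D2:**
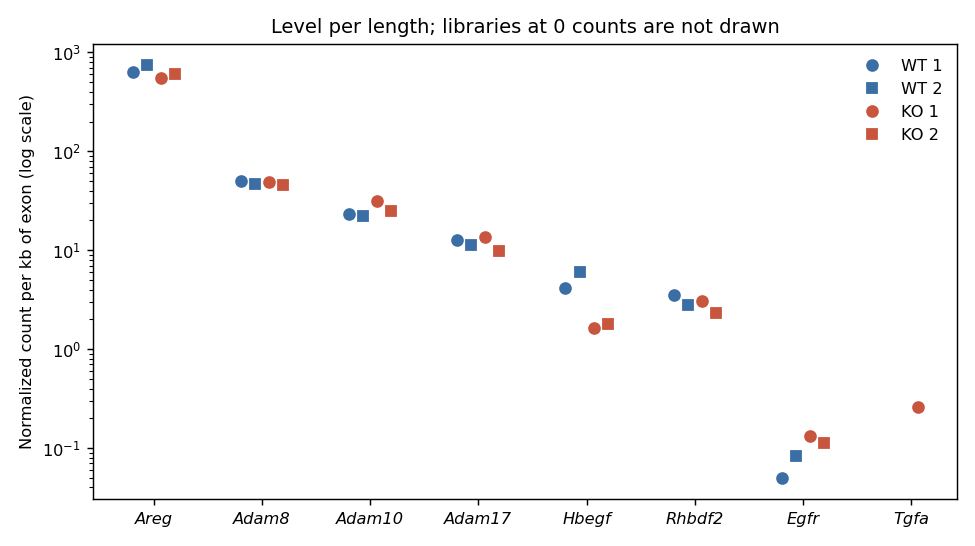
Normalized count per kb of exon (log y axis) for the 8 genes in order of their mean, with circles for replicate 1 and squares for replicate 2 and color for the label. Areg lies above 550 per kb in all 4 libraries and Adam8 between 45.9 and 49.9, whereas Egfr stays below 0.132 and the libraries with 0 counts of Tgfa are not drawn.

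Among the ligands, Areg encodes amphiregulin, a low-affinity ligand of EGFR. Its counts were 23129 and 28873 in WT and 19277 and 22918 in the KO-labelled libraries, which is 0.0777% to 0.100% of all counts in a library. Its normalized counts were 764 and 914 in WT against 669 and 730. Both KO-labelled libraries were thus below both WT libraries, as was so for 31.3% of all genes tested, and the highest of the former was close to the lowest of the latter. The group means were 839 ± 107 and 699.7 ± 43.2 (SD, n = 2). The log2 fold change was -0.23 with an SE of 0.105 and a 95% interval of -0.47 to 0.0027, which does not pass the test (edgeR's quasi-likelihood test, adjusted p = 0.17). The adjusted p ranged from 0.0564 to 0.633 over 12 alternative settings. Without WT replicate 2 the log2 fold change was -0.10 (adjusted p = 0.633), so that library carries much of the difference.

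Regulatory T cells, mast cells and basophils also make amphiregulin. The lineage stain (CD4, CD3ε, FcεRIα) was directed at them, yet their markers were read in all 4 libraries. The summed level of the 4 basophil and mast cell markers was 390 to 436 normalized counts in WT and 444 to 587 in the KO-labelled libraries, and none of the 4 was called. Foxp3, the defining factor of regulatory T cells, read 42.4 and 53.9 normalized counts in WT against 157 and 181 (log2 fold change 1.84, adjusted p = 0.000224), and the 3 regulatory T cell markers summed to 349 and 469 against 616 and 695. Cpa3 held most of the basophil and mast cell sum, with 364 and 306 in WT against 376 and 492, while Mcpt8 and Fcer1a had overlapping groups. Ctla4 held most of the regulatory T cell sum, with 280 and 390 against 389 and 435, and was not called. The part of these cells in the level of Areg was not tested.

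Hbegf encodes heparin-binding EGF-like growth factor, which binds EGFR and its relative ErbB4 and is held at cell surfaces by heparan sulfate. The gene lies at chr18:36504929-36515805 on the minus strand (mm10, ENSMUSG00000024486.6). Its counts were 605 and 927 in WT and 230 and 270 in the KO-labelled libraries. In normalized counts this was 20.0 and 29.4 against 8.02 and 8.63. The groups did not overlap, the 2 WT libraries differed more from each other than the 2 others did, and even the lower WT library was well above both. The means were 24.7 ± 6.63 and 8.33 ± 0.435 (SD, n = 2). Hbegf fell by 1.55 on the log2 scale (SE 0.257, 95% interval -2.13 to -0.96), and its fitted level was 2.92-fold higher in WT (interval 1.95 to 4.37; edgeR's quasi-likelihood test, adjusted p = 0.00705).

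Of 11711 genes tested, 35 had a lower log2 fold change than Hbegf. It was one of 63 genes (0.538% of those tested) called lower with at least a 2-fold change, where 4.94% were called higher by that much and no member was. It was called under all 12 alternative settings run, with adjusted p from 4.196e-07 to 0.0417. Leaving out each library in turn gave log2 fold changes of -1.79 to -1.24, the smallest of them without WT replicate 2, the library with its highest level.

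The ratio of the ligands to each other followed. Areg exceeded Hbegf per kb by 152-fold and 124-fold in the WT libraries and by 333-fold and 338-fold in the KO-labelled libraries. This ratio has Hbegf as its denominator and is therefore no separate result. Of the 4 eosinophil markers, Epx and Prg2 were lower in the KO-labelled libraries like Hbegf, Ccr3 was higher (5.18 and 8.42 normalized counts in WT against 14.6 and 25.6, adjusted p = 0.0192), and Siglecf (1.04 to 3.54) was not tested. Their sum, carried in WT by Epx and Prg2, was 93.2 and 65.8 against 17.3 and 32.8. Macrophages and monocytes are known to make HB-EGF, and the CD11b and CD11c stain was directed at them. Their markers were read in all 4 libraries and moved the other way from Hbegf, with sums of 236 in each WT library against 487 and 743. The part of either in the level of Hbegf was not tested.

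The 3 genes with the most similar pattern were found by the Euclidean distance between centred log2 normalized counts over the 4 libraries, among 8918 tested genes with a mean of at least 10 normalized counts. They were Gadd45gip1 (distance 0.259), Msc (0.269) and Il13 (0.301). Gadd45gip1, which encodes a mitochondrial ribosome protein, read 41.2 and 47.1 normalized counts in WT against 15.1 and 15.6 (log2 fold change -1.50, adjusted p = 0.00131). Msc, which encodes the transcription factor musculin, read 23.0 and 26.0 against 8.12 and 8.84 (log2 fold change -1.51, adjusted p = 0.00346). Il13, the ILC2 cytokine gene, read 31.6 and 35.2 against 11.1 and 12.9 (log2 fold change -1.45, adjusted p = 0.00247). With 4 libraries, a likeness of this kind describes the data and cannot show a relation between genes.

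Tgfa, at chr6:86195223-86275719 on the plus strand, encodes TGF-α, a high-affinity ligand of EGFR. It held 0 counts in both WT libraries, 49 in ICAM-1 KO replicate 1 and 0 in ICAM-1 KO replicate 2. A count of 0 allows up to 3 counts, or 0.0950 to 0.104 normalized counts depending on the library, for counting error only. The single library with reads sets this gene apart from the rest of its own group as much as from WT, so no fold is given and it did not enter the test. The other listed ligand genes were as scarce. Of 8 further EGF family ligand genes, 6 were in the tables (Egf, Ereg, Btc, Nrg1, Nrg2 and Nrg4) and 0 had enough counts to be tested, and all 6 together summed to 2.52 to 5.19 normalized counts per library. Nrg4, which encodes a neuregulin that binds ErbB4, read 1.10 and 0.743 normalized counts in WT against 1.12 in each KO-labelled library, and Nrg1 read 0.330 and 0.190 against 1.08 and 1.43. Ereg, the neighbour of Areg on chromosome 5 and the gene of epiregulin, read 0.190 to 0.396.

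The receptor gene Egfr lies at chr11:16752203-16918158 on the plus strand and was close to the limit of detection. It held 17 and 30 counts in WT and 43 and 40 in the KO-labelled libraries, or 0.594 and 0.982 normalized counts against 1.53 and 1.31. Both KO-labelled libraries were above both WT libraries, at levels that did not reach the minimum for the test. The means of 0.788 ± 0.274 and 1.42 ± 0.156 (SD, n = 2) differ by 0.85 on the log2 scale. Under the 3 settings that kept the gene, the log2 fold change was 0.84 without a filter (adjusted p = 0.45), 0.89 with at least 10 counts in every library (adjusted p = 0.269) and 0.85 with edgeR's own filter (adjusted p = 0.42), so it did not pass in any of them. EGFR is abundant on lung epithelium and stroma. Summed alveolar epithelial markers were 82.0 and 46.4 normalized counts in WT against 420 and 859. Among them the surfactant genes Sftpc and Sftpa1 read 24.2 and 0.570 against 253 and 537, and 31.8 and 23.1 against 112 and 220. Epcam (10.5 and 11.3 against 14.1 and 17.5), Cdh1 and Krt8 were not called. The part of epithelial cells in these few Egfr reads was not tested.

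Of the other receptors of the family, Erbb2 and Erbb3 were in the tables and Erbb4 was not. Erbb3, a receptor of neuregulins with little kinase activity of its own, was the only one with enough counts and read 6.90 and 8.80 normalized counts in WT against 7.12 and 9.75 (log2 fold change 0.13, adjusted p = 0.804). Erbb2, the partner receptor with no ligand of its own, read 1.22 and 0.792 against 3.85 and 2.36 and was not tested.

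The transcripts of the 3 proteases were well covered, and none of the 3 passed the test. Adam8 (chr7:139978932-139992562, minus strand) held 7011 and 6860 counts in WT and 6547 and 6688 in the KO-labelled libraries, or 231 and 217 normalized counts against 227 and 213. The groups overlapped and the 4 libraries were nearly level. The log2 fold change was -0.00079 (SE 0.0874, 95% interval -0.20 to 0.20, edgeR's quasi-likelihood test, adjusted p = 0.998), so that changes within that interval could not be told from none. Per kb it exceeded Adam17 by 3.58-fold to 4.70-fold and Adam10 by 1.55-fold to 2.16-fold in the single libraries.

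Adam17 (chr12:21323509-21373632, minus strand), the main sheddase of the group, held 2736 and 2530 counts in WT and 2822 and 2194 in the KO-labelled libraries. Its normalized counts were 90.4 and 80.2 in WT against 98.0 and 69.9. The 2 KO-labelled libraries were thus the highest and the lowest of the 4. The log2 fold change was 0.0018 with an SE of 0.154 and a 95% interval of -0.35 to 0.35 (adjusted p = 0.996). The gene overlaps Iah1 on the opposite strand (780 to 932 counts per library), and the sources used here do not give the strand setting of the counting.

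Adam10 (chr9:70678997-70780229, plus strand) held 3440 and 3462 counts in WT and 4464 and 3877 in the KO-labelled libraries. Its normalized counts were 114 and 110 in WT against 155 and 124. Both KO-labelled libraries were above both WT libraries, as in 28.3% of all genes tested, and replicate 1 stood higher than replicate 2. The means were 112 ± 2.79 and 139 ± 22.2 (SD, n = 2), a log2 fold change of 0.34 (SE 0.117, 95% interval 0.08 to 0.61) that did not pass after adjustment (edgeR's quasi-likelihood test, adjusted p = 0.0838). At an unadjusted p under 0.05, 30.2% of all genes tested would pass, and 2 of the 6 members (Hbegf and Adam10). Without ICAM-1 KO replicate 2 the log2 fold change was 0.49 and passed (adjusted p = 0.0203), and without ICAM-1 KO replicate 1 it was 0.18 (adjusted p = 0.474). Adam10 lies on chromosome 9 with Icam1, 49.65 Mb from it. Several lists of markers of other cells moved the same way. Summed endothelial markers were 149 in each WT library against 405 and 439 normalized counts, and macrophage and monocyte markers 236 against 487 and 743. The part of any of these cells in the level of Adam10 was not tested.

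Rhbdf2 (chr11:116598165-116627019, minus strand) held 567 and 465 counts in WT and 469 and 383 in the KO-labelled libraries, or 18.8 and 14.8 normalized counts against 16.3 and 12.2. The groups overlapped, since ICAM-1 KO replicate 1 lay between the 2 WT libraries. The log2 fold change was -0.21 (SE 0.236, 95% interval -0.74 to 0.33, adjusted p = 0.600). Per kb, Adam17 exceeded Rhbdf2 by 3.57-fold and 4.03-fold in WT and by 4.45-fold and 4.24-fold in the KO-labelled libraries. Without ICAM-1 KO replicate 1, the log2 fold change of Adam17 was -0.25, and that of Rhbdf2 lay between -0.42 and -0.02 when each library was left out in turn.

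Around these genes, 53 further genes of the EGF system were listed in 7 lists, 48 were in the tables and 36 were tested. Of the 36, 8 (22.2%, with 8.8% of all genes) rose in the KO-labelled libraries, 2 (5.56%, with 4.97% of all genes) fell and 26 did not pass, with a median log2 fold change of 0.13. Those that passed stood among sheddase partners, inhibitors, adaptors and substrates. None of the 4 tested ADAM proteases passed. Adam9 read 44.9 to 46.7 normalized counts in the 4 libraries (log2 fold change 0.07, adjusted p = 0.765), and Adam19, a protease of neuregulin, read 130 and 132 in WT against 123 and 93.3 (log2 fold change -0.25, adjusted p = 0.23). Without ICAM-1 KO replicate 1 Adam19 was at -0.45 and passed (adjusted p = 0.0417), and without ICAM-1 KO replicate 2 it was at -0.07 (adjusted p = 0.819). In mean level per kb, Adam19 (16.8) lay between Adam10 (25.5) and Adam17 (11.8), and Adam9 (11.1) lay near Adam17.

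**Figure D3:**
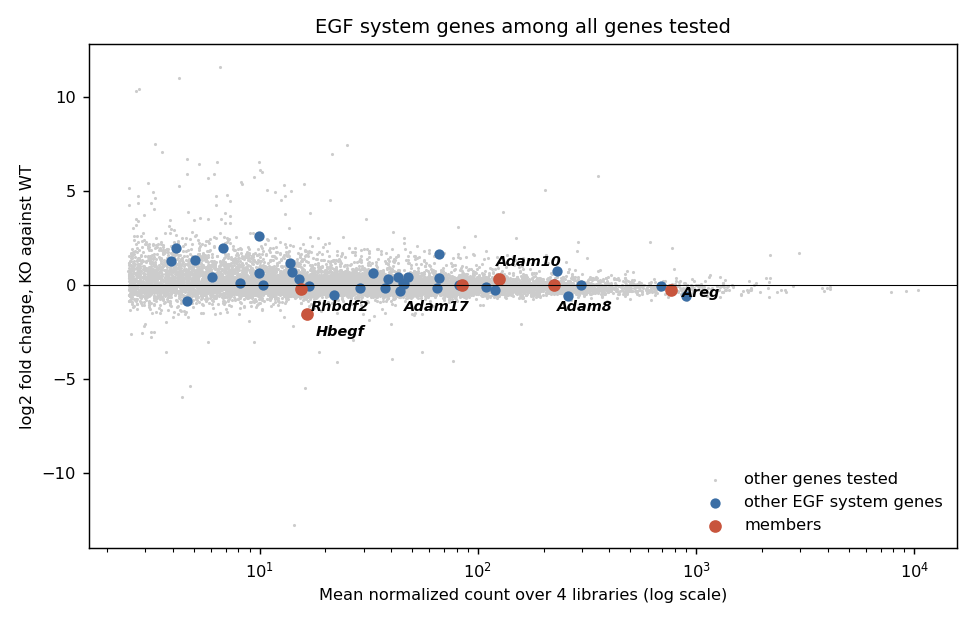
Log2 fold change (y axis, KO-labelled libraries against WT) against the mean normalized count over 4 libraries (log x axis) for all 11711 genes tested in grey, with the 6 tested members in red and the 36 other tested EGF system genes in blue. Hbegf lies at -1.55 and well below the other 5 members, which lie between -0.23 and 0.34.

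Of the sheddase partners, 1 of 7 tested rose and 1 fell, where 8.8% of all genes tested rose and 4.97% fell. With so few genes these counts are near that share. Furin, a proprotein convertase that removes the inhibitory prodomain of several but not all ADAM proteases, was abundant. It read 1151 and 1022 normalized counts in WT against 698 and 729. Both WT libraries were far above both others, and Furin fell by 0.58 on the log2 scale (SE 0.0903, adjusted p = 0.00538), a call that held in all 12 alternative settings. Rhbdf1, which encodes iRhom1, the paralog of iRhom2, read 1.19 and 2.22 normalized counts in WT against 6.18 and 6.91 and rose by 1.98 on the log2 scale (SE 0.415, adjusted p = 0.0167). Its call was lost without a filter (adjusted p = 0.0602) and without WT replicate 1 (0.0803). Rhbdf1 stayed below Rhbdf2 per kb in every library, at 0.213 and 0.402 in WT against 1.13 and 1.27. Frmd8, which encodes a protein that stabilizes the iRhom and ADAM17 complex, lay between 102 and 118 (log2 fold change -0.07, adjusted p = 0.691). Tspan14, a tetraspanin partner of ADAM10, read 57.7 and 59.2 in WT against 70.3 and 79.0 (log2 fold change 0.38, adjusted p = 0.0616) and passed with DESeq2 alone (adjusted p = 0.0438).

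Of the 4 tested inhibitors, 2 rose, where 8.8% of all genes tested did. Timp3, the tissue inhibitor that blocks ADAM17, read 2.01 and 3.70 normalized counts in WT against 15.2 and 18.8 (log2 fold change 2.61, SE 0.333, adjusted p = 0.00232) and was called in all 12 alternative settings. Timp2 read 24.9 and 27.1 against 35.5 and 44.5 (log2 fold change 0.65, adjusted p = 0.0353) and was called in 7 of 12. Its call was lost without a filter (adjusted p = 0.115) and with edgeR's own filter (0.0534). It was also lost without WT replicate 1, WT replicate 2 or ICAM-1 KO replicate 2, at log2 fold changes of 0.59, 0.72 and 0.47. Timp1 varied from 0.363 to 7.49 normalized counts with overlapping groups (log2 fold change 1.27, adjusted p = 0.264). Its log2 fold change was 4.08 without WT replicate 2 (adjusted p = 0.0553), 0.39 without WT replicate 1 and 0.61 without ICAM-1 KO replicate 2, so single libraries decide its size. Reck, a membrane-anchored protease inhibitor, read 6.50 and 5.51 in WT against 4.13 and 2.55 (log2 fold change -0.84, adjusted p = 0.165). Fibroblasts, endothelium and other stromal cells express Timp3. Summed fibroblast markers were 59.2 and 88.1 normalized counts in WT against 165 and 173, of which Fn1, the only one of 6 tested that was called, held 44.0 and 40.4 against 129 and 94.8. The other 7 summed to 15.5 and 47.9 against 36.4 and 78.4, with overlapping groups. Summed endothelial markers were 149 in each WT library against 405 and 439. Neither type carries CD45, for which the cells were sorted, yet markers of both were read in all 4 libraries. The part of either type in the levels of Timp2, Timp3 and Rhbdf1 was not tested.

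Among adaptor and feedback genes of the receptor, 1 of 8 tested rose, which is near the 8.8% of all genes tested. Cblb, a ubiquitin ligase that restrains receptor signaling in lymphocytes, read 43.8 and 37.7 normalized counts in WT against 56.6 and 53.6 (log2 fold change 0.46, adjusted p = 0.0488) and was called in 2 of 12 alternative settings, in none of those that left out a library (adjusted p 0.0685 to 0.184). The adaptor genes Grb2 (normalized counts 215 to 239, log2 fold change 0.08, adjusted p = 0.631) and Shc1 (76.1 to 87.2, log2 fold change 0.02, adjusted p = 0.911) had overlapping groups.

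Of 12 other surface proteins known to be shed by these proteases, all 12 transcripts were tested. Of these, 4 rose and 1 fell, where 8.8% of all genes tested rose and 4.97% fell. The genes of the TNF receptors rose, with 8.65 and 8.30 normalized counts of Tnfrsf1a in WT against 19.0 and 19.2 (log2 fold change 1.20, adjusted p = 0.00989) and 164 and 181 of Tnfrsf1b against 287 and 296 (log2 fold change 0.79, adjusted p = 0.00148). Il6ra, the IL-6 receptor gene, read 2.64 and 2.94 against 9.87 and 11.8 (log2 fold change 1.99, adjusted p = 0.00649). Each of these 3 calls held in all 12 alternative settings. Il1r2, which encodes a decoy receptor of IL-1, fell by 0.58 on the log2 scale (adjusted p = 0.00796), from 321 and 302 normalized counts to 190 and 219, and its call was lost without WT replicate 1 (adjusted p = 0.0512). Selplg (644 to 727, log2 fold change -0.06, adjusted p = 0.687) and Cd44 (285 to 309, log2 fold change 0.01, adjusted p = 0.938), the most abundant of the 7 that did not pass, differed little. Il6ra and both TNF receptor genes are also expressed by T cells, neutrophils or macrophages, whose summed markers were 248 and 326, 52.5 and 51.2, and 236 and 236 normalized counts in WT against 439 and 553, 140 and 102, and 487 and 743. The lineage stain was directed at each of these types, yet their summed markers were read in all 4 libraries. The part of these cells was not tested. The T cell sum includes Cd3g, which read lower in both KO-labelled libraries and was not called.

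**Figure D4:**
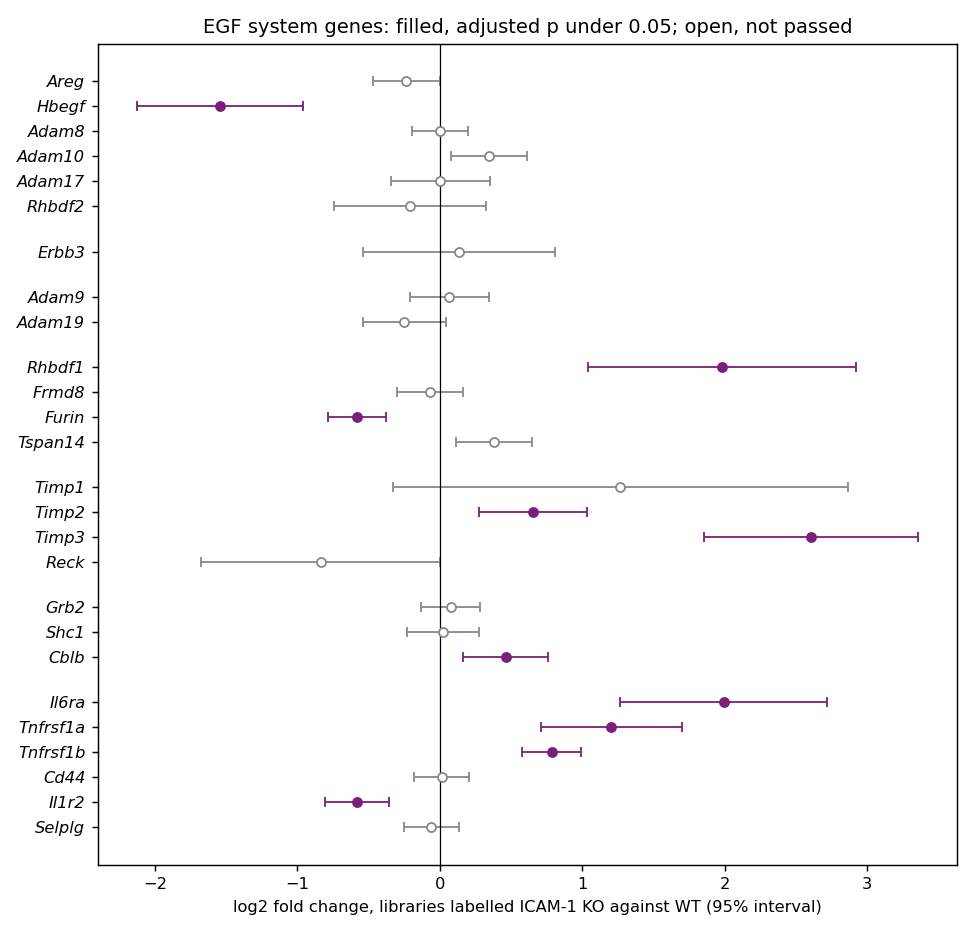
Log2 fold changes with 95% intervals (x axis) of the 6 tested members, at the top, and of the named EGF system genes in the order of their lists, filled where the adjusted p was under 0.05. Hbegf, Furin and Il1r2 are filled on the lower side at -1.55, -0.58 and -0.58, and the 7 filled genes on the higher side run from 0.46 (Cblb) to 2.61 (Timp3).

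The values of the 3 members whose groups did not overlap are shown under every setting in the plot of settings. Hbegf kept its direction and its call in each of them. Areg stayed lower in the KO-labelled libraries in each and was called in none. Adam10 stayed higher in each and was called in 1 of 12.

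**Figure D5:**
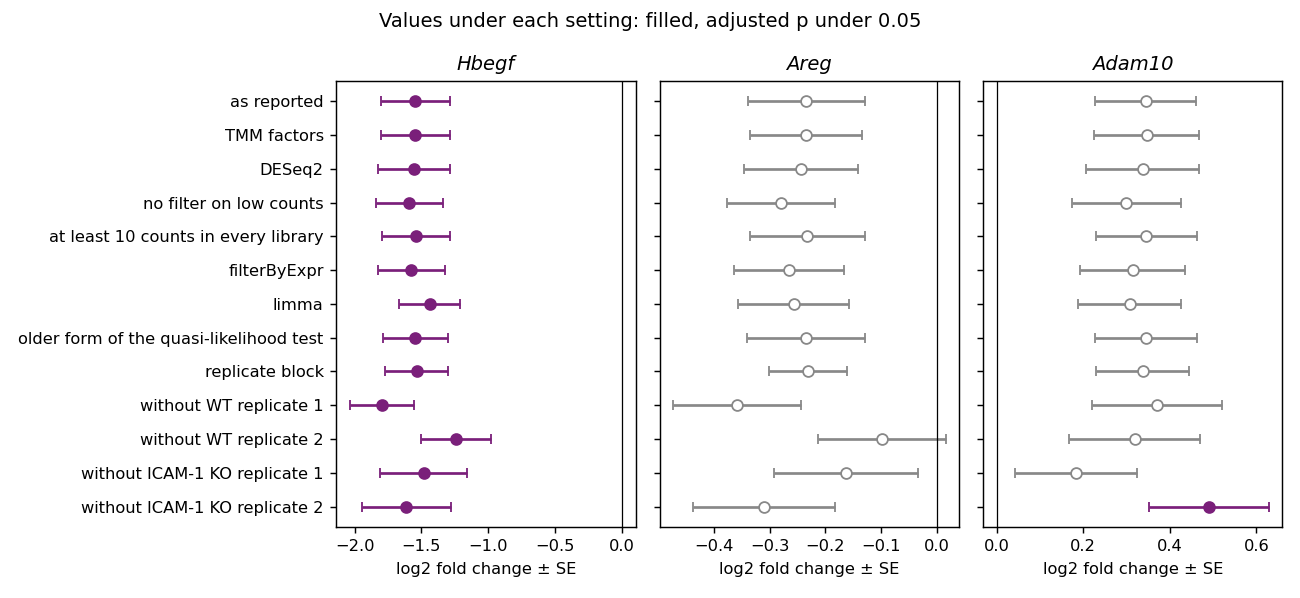
Log2 fold change with its SE (x axis) of Hbegf, Areg and Adam10 as reported and under 12 alternative settings (y axis), filled where the adjusted p was under 0.05. All Hbegf points are filled and lie between -1.79 and -1.24, no Areg point is filled, and the only filled Adam10 point, at 0.49, leaves out ICAM-1 KO replicate 2.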

How the data were processed

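Messenger RNA of sorted lung ILC2s was measured in 4 libraries, each a pool of 4 mice. Per the labels and the study's methods, 10 ng of total RNA was amplified by SMARTer chemistry and sequenced on an Illumina NextSeq, and reads were aligned with STAR to mm10 with GENCODE annotation. The authors then deposited expected counts per gene from Partek's expectation-maximization step, and a second table of upper-quartile normalized signal, equal to (count + 1) times a factor of the library. Their own statistic is not used here. The aligner version is not the same in all sources and is left out.

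Expected counts were rounded and tested with edgeR 4.0.16 (R 4.3.3, quasi-likelihood, upper quartile factors). Genes entered whose normalized counts averaged 1 or more and added up to 10 or more across libraries, which left 11711 genes, and p-values were adjusted by Benjamini-Hochberg over all of them. Normalized counts printed for single genes are the deposited values, or the same formula for a gene without one. Sums over whole lists are counts times the factor, without the added 1. The sum of the 7 fibroblast markers other than Fn1 keeps it. Levels per kb divide counts, scaled by the same factors, by exon bases in GENCODE M21, which matched 22377 of 22558 genes. Both groups entered 1 fit without covariates. Alternatives were TMM factors, DESeq2 1.42.0, limma 3.58.1 on log2(normalized count + 1), other filters, an older quasi-likelihood form, a replicate block and leaving out each library. Scripts were tested on simulated data. The genes named were all 8 members, each listed EGF system gene that passed with the 2 most abundant others per list, and the 3 nearest patterns to a called member. One of these EGF system genes, which is in the list counts, is not reported here. The members and lists were chosen with earlier results of these data known. With 2 pools per group, p-values weigh the group difference against the spread between pools. That spread is estimated for each gene with information shared over all genes tested. Counts without molecular identifiers make the floor of 3 counts one of counting error only.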

Additional observations from a re-analysis of the deposited data

How the results depend on the processing

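The 6 tested members were recomputed under 12 alternative settings, which gave 72 values. Of these, 60 kept the direction and the side of the threshold, 11 reversed and 1 passed where it had not before. The reversals concern Adam8 and Adam17, whose log2 fold changes are near 0. Adam8 was 0.00021 with TMM factors and 0.00068 with at least 10 counts in every library, and -0.046 to 0.046 when each library was left out in turn. Adam17 was -0.0044 with DESeq2, -0.044 without a filter, -0.028 with filterByExpr, -0.039 with limma, -0.011 with the replicate block, and -0.25 to 0.22 when each library was left out. Adam10 ranged from 0.18 to 0.49 when each library was left out.

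The number of members called lower was 1 in each setting, and the number called higher was 0, or 0 to 1 when each library was left out. Over all genes, 1030 were called higher and 582 lower. These counts were 334 and 201 without a filter and 578 and 63 with at least a 2-fold change. DESeq2 called 930 lower. Leaving out each library gave 479 to 948 higher and 158 to 388 lower, with fewer samples in the fit, and a lone library was there assumed to vary like the other group. The lowest counts were 479 higher without WT replicate 1 and 158 lower without WT replicate 2. Of the other EGF system genes, 8 were called higher and 2 lower. These became 5 higher without a filter, 5 higher and 0 lower at 2-fold or more, and 5 to 9 higher and 1 to 3 lower when each library was left out.

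Of 240 values of the named other EGF system genes, 206 kept direction and side, 18 were no longer past the threshold, 2 newly passed and 14 reversed, and the reversed ones belong to genes whose log2 fold changes were small. Shc1 was -0.021 without a filter, -0.0064 with filterByExpr, -0.0034 with limma and -0.065 to 0.11 when each library was left out. Cd44 was -0.032, -0.018, -0.012 and -0.043 to 0.072 in the same order. When each library was left out, Erbb3 ranged from -0.13 to 0.35, Grb2 from -0.012 to 0.16 and Selplg from -0.13 to 0.0080. The cause of these moves was not tested.

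Same-numbered libraries did not deviate together (correlation -0.058). With 2 pools per group this cannot show whether they share more than a number. With the replicate block 1077 genes were called higher and 638 lower, and Areg had an adjusted p of 0.0564. At these depths Tgfa, with 0 counts in 3 of 4 libraries, could not be compared, Egfr did not pass in the 3 settings that tested it, and 2 pools per group limit every interval.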
